A study of Mus musculus with 6 samples.

Results

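Cytosolic ribosomal proteins are the protein components of the ribosomes that translate messenger RNA in the cytoplasm. They were chosen here by gene symbol, taking names of the Rpl and Rps series, the P-stalk genes Rplp0, Rplp1 and Rplp2, and Rpsa, and leaving out names marked as pseudogene copies and 1 further gene. The rule found 86 genes of the 24182 in the gene table, 53 of them named for the large subunit and 33 for the small subunit. Of the 86 members, 84 were tested, because they had a level of 1 FPKM or above in no fewer than 3 libraries. FPKM counts fragments per kilobase of transcript relative to all fragments of a library. Rpl3l and Rpl39l did not reach that level. The annotation of the transcript table gives Rpl32l and Rpl6l as processed pseudogenes, and Rpl37rt and Rps4l as transcribed processed pseudogenes, so 80 tested members are annotated as protein-coding genes.

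The study sequenced RNA from mouse Th17 cells, the helper T cells that make interleukin 17, with 3 libraries of cells in which Sirt2 was knocked out with CRISPR/Cas9 (Sirt2 KO) and 3 libraries of control cells (Sirt2 WT). Sirt2 encodes a NAD-dependent deacetylase. Cells of both genotypes were activated for 72 hours through CD3 (antibody at 0.5 µg/mL) and the costimulator CD28 (antibody at 1 µg/mL), and their treatment label reads untreated. The labels give no strain, sex or age, no guide sequence, and no word on whether the replicates of a genotype came from different cultures or mice. Every p-value here is therefore about the spread among these 6 libraries, part or all of which may be technical.

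Each ribosome contains 1 copy of nearly every ribosomal protein, assembled on ribosomal RNA in the nucleolus, and the small subunit reads the messenger RNA while the large subunit joins amino acids. Messenger RNAs of ribosomal proteins are short and abundant, and most begin with a run of pyrimidines, the 5′ terminal oligopyrimidine tract, through which mTOR signalling adjusts their translation. Activated T cells make many new ribosomes before they divide.

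Sirt2 itself was at 11.2, 13.5 and 10.9 FPKM in Sirt2 KO libraries, against 20.7, 19.9 and 21.9 FPKM in Sirt2 WT libraries (log2 fold change -0.76, limma adjusted p = 0.0429). All 3 KO libraries were below all 3 WT libraries for the targeted gene. Its call held without KO replicate 2 or KO replicate 3 and was lost without KO replicate 1 or any 1 of the 3 WT libraries (limma adjusted p of 0.00905 to 0.376 over the 6 omissions). KO replicate 3 stood apart from the other KO libraries over the tested genes: Pearson's r of its log2 values was 0.990 with each WT library but 0.981 with KO replicate 1 and 0.979 with KO replicate 2, a description across genes that share each library's total. Results are therefore given with and without it. T cell markers were present in all libraries, and 8 of them summed to between 542 and 615 FPKM in KO, against between 572 and 604 in WT. The 7 Th17 markers summed to between 286 and 443 FPKM in KO, against between 447 and 467 in WT, with 0 of them called by limma and 2 at an unadjusted p under 0.05. No counts are given, so the read depth of each library is unknown.

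Start sites of a few members are shown first, because the pyrimidine run at the start is what marks these messages as a class. RefSeq (GRCm38.p6) gave 75 start sites for 64 members. The 60 bases printed for each gene run from 40 bases before the RefSeq start nearest to its main transcript to 20 bases from it on, on the gene's own strand, with capitals for CTCTTT on that strand or CCGGAAG, the core that ETS factors recognise, on either strand.
Rpl28, chr7:4792925-4792984, plus strand: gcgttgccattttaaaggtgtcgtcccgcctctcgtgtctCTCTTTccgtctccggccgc
Rps6, chr4:86857348-86857407, minus strand: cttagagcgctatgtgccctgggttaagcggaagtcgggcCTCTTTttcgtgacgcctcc
Rpl38, chr11:114668540-114668599, plus strand: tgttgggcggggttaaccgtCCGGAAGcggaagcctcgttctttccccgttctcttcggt
Rps21, chr2:180257339-180257398, plus strand: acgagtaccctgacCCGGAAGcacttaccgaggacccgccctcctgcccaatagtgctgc
Rpl22l1, chr3:28805468-28805527, plus strand: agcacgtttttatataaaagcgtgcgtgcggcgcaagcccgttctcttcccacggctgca
Within these 60 bases CTCTTT lay on the gene's strand at 12 of the 75 member starts (16%), against 2.51% of all 32851 starts. Over the 300 bases given for each start, CCGGAAG lay on either strand at 26 member starts (34.7%), against 8.86% of all starts. Both are letter matches only, counted anywhere in their window. A CTCTTT match therefore does not show that a message begins with a pyrimidine run. Some RefSeq starts also lay far from that of the main transcript, by 493 bases for Rpl35, 769 for Rps10 and 6747 for the pseudogene Rpl37rt. For the printed genes the distance was 91 bases for Rpl28, 45 for Rps6, 56 for Rpl38, 2 for Rps21 and 72 for Rpl22l1. Among them only the bases printed for Rps21 hold the start of the main transcript. Among tested members with a RefSeq start, the 11 with CTCTTT had a median log2 fold change of 0.06 and the 51 without it 0.12. The 24 with CCGGAAG had a median of 0.11 and the 38 without it also 0.11.

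On average over the 3 Sirt2 KO libraries nearly every ribosomal protein gene was slightly above its WT mean, yet no single gene passed the test and KO replicate 3 did not share the difference. With all 6 libraries, limma on log2(FPKM + 1) called 0 of 84 members higher (0.092% of the 10873 tested genes were called higher) and 0 lower (0.0184%) at an adjusted p under 0.05. At an unadjusted p under 0.05 there were 6 members, all of them higher in KO, against 5.61% of tested genes in either direction (0.11% were called in either direction). The log2 fold change was above 0 for 83 of 84 members, against 41.3% of tested genes, and the exception was the pseudogene Rpl6l at -0.02. The median log2 fold change was 0.11 over the members, 0.10 over the 51 large subunit members and 0.13 over the 33 small subunit members, against -0.03 over all tested genes. Because members share each library's total and its other properties, these signs are not independent observations.

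KO replicates 1 and 2 carried the difference. Set against the mean of the WT libraries, the median member was 0.14 higher in KO replicate 1 on the log2 scale, 0.22 higher in KO replicate 2, and at -0.01 in KO replicate 3. The same medians in WT replicates 1, 2 and 3 were -0.04, 0.03 and 0.01. Above the WT mean were 78, 82 and 35 of the 84 members in KO replicates 1, 2 and 3, and 15, 64 and 47 in WT replicates 1, 2 and 3. Both subunits had similar medians: KO replicate 1 had a median of 0.13 for the large and 0.14 for the small subunit, and KO replicate 2 had 0.19 and 0.25.

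**Figure D1:**
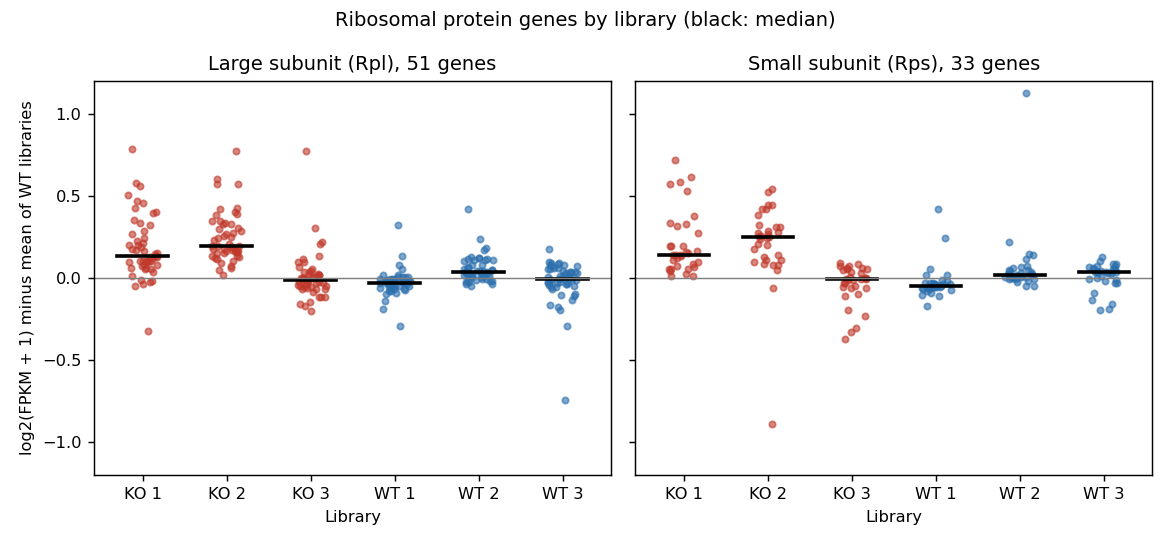
Each point is 1 ribosomal protein gene in 1 library, as log2(FPKM + 1) minus the mean of the 3 WT libraries, with large subunit members on the left and small subunit members on the right. Black bars are medians, which lie above 0 in KO replicates 1 and 2 and near 0 in KO replicate 3. Of the plotted values, 2 (Rps27rt) lie beyond the axis.

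As a share of all fragments, taken as FPKM times exon length in kilobases (FPM below), members held 7.58, 7.90 and 6.87% in KO libraries, against 6.70, 6.997 and 6.96% in WT libraries. KO replicate 3 fell inside the WT range, so the groups overlapped. The mean share was 7.45 ± 0.530% in KO and 6.89 ± 0.159% in WT (SD, n = 3 each, exact two-sided permutation p = 0.3, where 0.1 is the smallest p that 3 against 3 allows). In bulk RNA a shift in cell makeup and a shift in RNA per cell cannot be told apart. Of markers of other cells, 10 myeloid genes, 3 of which passed the filter, summed to 40.5 to 40.7 FPKM in KO and 30.2 to 31.4 in WT. Most of that sum was Ctss, with means of 28.7 in KO and 27.7 in WT. Lyz2, with means of 7.33 and 1.07, made up most of the difference between group means (limma adjusted p = 0.0503). The 6 B cell genes, 1 of which passed, summed to 22.7 to 27.5 FPKM in KO and 19.1 to 19.7 in WT. Nearly all of that was Ighm, with means of 22.9 and 18.5. Without KO replicate 3, Lyz2 and Ighm rose (limma adjusted p = 0.00160 and 0.0436), and with 6 libraries neither was called. The 7 measured CD8 and NK cell genes, 4 of which passed, summed to 23.5 to 26.7 FPKM in KO and 9.08 to 9.90 in WT. Of them 1, Gzmb, rose (limma adjusted p = 0.00675, and 0.0688, 0.0502 and 0.0543 without KO replicate 1, WT replicate 2 or WT replicate 3). Gzmb made up most of the difference in this sum, with a mean of 16.3 FPKM in KO and 2.80 in WT. Means in KO and WT were 2.37 and 0.771 for Nkg7, 1.95 and 1.40 for Klrd1, and 4.11 and 4.16 for Cd8b1. Apart from the cell markers, 5 nuclear retained RNAs, 3 of which passed, summed to 10.4 to 24.8 FPKM in KO and 22.6 to 32.4 in WT. Most of this was Xist, at 10.8, 8.16 and 20.3 FPKM in KO against 26.5, 19.4 and 17.8 FPKM in WT. Without KO replicate 3, Malat1 and Xist fell (limma adjusted p = 0.0287 and 0.0182), and with 6 libraries neither was called. No gene of these lists was at 0 in all 6 libraries. The part of these lists in the shift of ribosomal proteins was not tested.

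Without KO replicate 3, 29 of 84 members rose in KO (4% of 10726 tested genes were called higher) and 0 fell (6.14% were called lower), by limma with adjusted p under 0.05 (10.1% were called in either direction). At an unadjusted p under 0.05 there were 55 higher and 0 lower (32.5% of tested genes in either direction), and the log2 fold change was above 0 for 80 of 84 members, against 41.7% of tested genes. These 29 were 17 large and 12 small subunit members, and the median log2 fold change over all 84 was 0.18. Each of the 6 libraries was left out in turn, and the other 5 omissions gave 0 called members. Among the 29, Rpl30 had the highest log2 fold change at 0.78 ± 0.08 (SE; adjusted p = 0.00825). Rps29, a zinc-binding small subunit protein, followed at 0.57 and Rps27l, a paralog of Rps27 known as a p53 target, at 0.56 ± 0.05 with the smallest adjusted p, 0.00422. Rps28, Rpl7a, Rps21, Rpl29, Rpl38 and Rpl39 had log2 fold changes of 0.55, 0.50, 0.49, 0.48, 0.47 and 0.46. The lowest of the 29 was Rps23 at 0.20, a protein of the decoding centre.

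**Figure D2:**
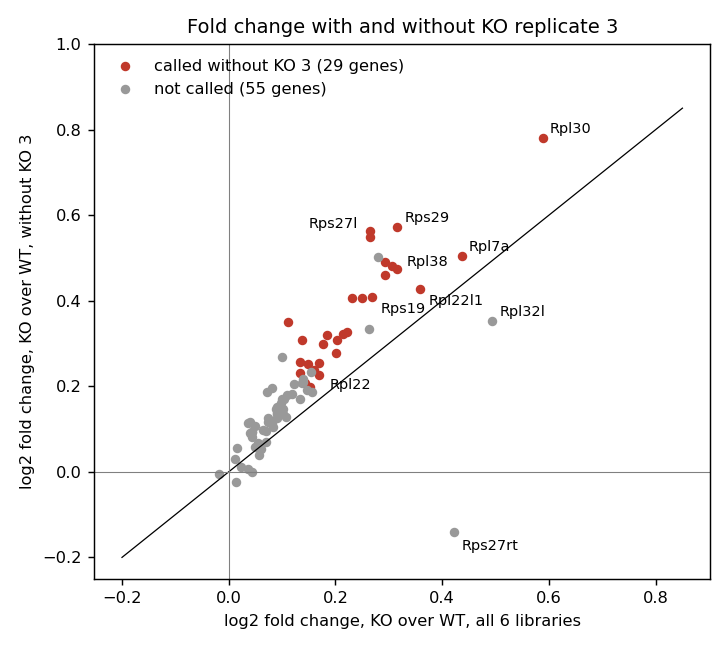
Each point is 1 of the 84 tested members, with its log2 fold change of KO over WT from all 6 libraries on the horizontal axis and without KO replicate 3 on the vertical axis. Most points lie above the diagonal line of equal values. The 29 members called without KO replicate 3 are red.

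Rps27l shows how much KO replicate 3 decided. Its level was 140, 136 and 73.8 FPKM in KO, against 92.4, 95.2 and 91.7 FPKM in WT. KO replicates 1 and 2 lay well above a narrow WT range and KO replicate 3 below it, so the fit of all 6 libraries gave 0.26 with an adjusted p of 0.871 in limma. Rps28 had the same pattern, with 74.9, 72.5 and 40.3 FPKM in KO against 52.0, 55.2 and 43.6 FPKM in WT. Rps19, the small subunit protein most often mutated in Diamond-Blackfan anaemia in humans, was at 135, 142 and 103 FPKM in KO against 101, 104 and 108 FPKM in WT. Here KO replicate 3 fell within the WT range.

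In 12 members every KO library stood above every WT library (4.28% of tested genes did), and in 0 members below (6.88%). Of these, 7 belong to the large subunit, namely Rpl30, Rpl32l, Rpl7a, Rpl22l1, Rpl22, Rpl26 and Rpl6, and 5 to the small subunit, namely Rps27a, Rps18, Rps23, Rps4x and Rps7. None passed the limma test with all 6 libraries.

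**Figure D3:**
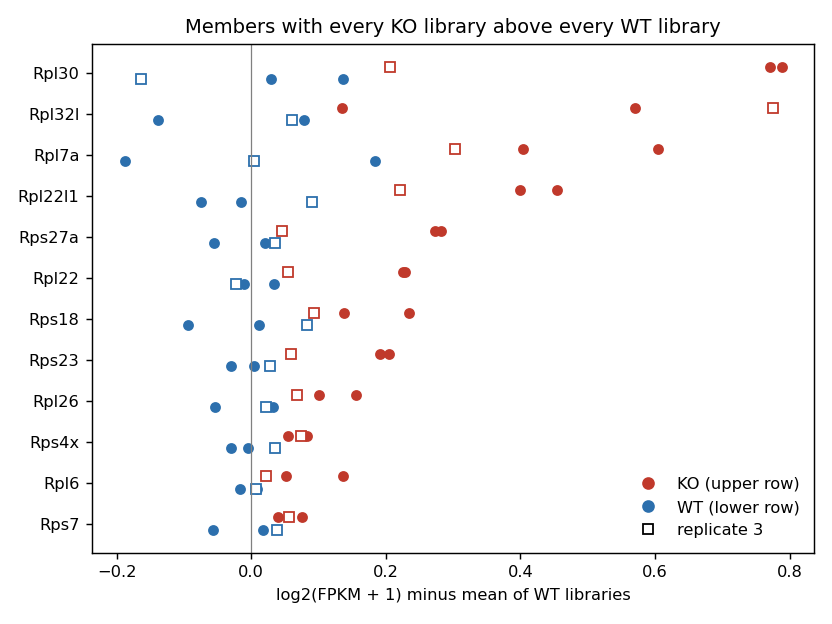
For the 12 members in which all KO libraries exceed all WT libraries, each mark is 1 library, as log2(FPKM + 1) minus the WT mean, with KO above WT in each row of genes and open squares for replicate 3. Rpl30 spreads furthest, with KO replicates 1 and 2 close together and KO replicate 3 nearer to WT.

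Rpl22l1 had the smallest unadjusted p of the members. This paralog of Rpl22 can take its place in the large subunit, and in mice Rpl22 is known to repress it. The gene (ENSMUSG00000039221, chr3:28805436-28807424 on GRCm38) was at 66.8, 64.3 and 56.6 FPKM in KO, against 46.0, 47.9 and 51.7 FPKM in WT. The lowest KO library lay above the highest WT library (log2 fold change 0.36 ± 0.08 SE, 95% interval 0.17 to 0.55, unadjusted p = 0.00278, adjusted p = 0.543 by limma). Without KO replicate 3 the fold change was 0.43 and the adjusted p 0.0150. Rpl22, which binds RNA and is needed for the development of alpha-beta T cells in mice, was at 113, 113 and 100 FPKM in KO, against 95.7, 98.8 and 94.9 FPKM in WT. It also did not overlap (log2 fold change 0.17, limma adjusted p = 0.843). Its gene lies at chr4:152325742-152334071.

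Rpl7a, a large subunit protein, was at 490, 564 and 457 FPKM in KO, against 325, 421 and 371 FPKM in WT (chr2:26910764-26913318). KO values were all higher, with a log2 fold change of 0.44 ± 0.11 (SE; 95% interval 0.17 to 0.70; limma adjusted p = 0.693). Rps27a, which is made as a fusion with ubiquitin, was at 433, 436 and 370 FPKM in KO, against 345, 364 and 367 FPKM in WT (log2 fold change 0.20, limma adjusted p = 0.843). Its lowest KO library lay just above the highest WT library. The pseudogene Rpl32l was low throughout, at 2.82, 4.17 and 4.95 FPKM in KO against 2.16, 2.67 and 2.63 FPKM in WT.

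Rpl30 had the largest log2 fold change of the members on the log2(FPKM + 1) scale. With a pseudocount of 0.1 it was 0.59, and that of the low pseudogene Rpl32l was 0.63. Its protein binds RNA and in yeast is known to act on its own transcript. The gene (ENSMUSG00000058600, chr15:34440505-34443640, minus strand) was at 161, 159 and 107 FPKM in KO, against 102, 94.7 and 82.7 FPKM in WT. All KO libraries were higher, KO replicate 3 by the least (log2 fold change 0.59 ± 0.16 SE, 95% interval 0.21 to 0.97, limma adjusted p = 0.738). In the authors' deposited table it has a fold of 1.53 and a q of 0.0214, and it is the only member there with q under 0.05, against 0.422% of genes. That table marks 0 members as significant.

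Rpl30 has processed pseudogenes, copies of its messenger RNA inserted elsewhere, and 4 of them passed the filter. Coding bases 37 to 96 of Rpl30 are shown with the same stretch of each copy from the GENCODE transcripts on GRCm38, because reads from the gene and its copies differ at so few bases. Capitals mark the bases at which a copy differs from the gene, and in Rpl30 the bases at which any copy does.
Rpl30, chr15:34442706-34442765: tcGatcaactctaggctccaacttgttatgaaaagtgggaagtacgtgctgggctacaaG
Rpl30-ps8, chr12:99047266-99047325: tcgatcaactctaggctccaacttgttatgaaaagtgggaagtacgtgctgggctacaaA
Rpl30-ps9, chrX:105278889-105278948: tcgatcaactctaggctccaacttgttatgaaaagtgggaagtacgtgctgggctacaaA
Rpl30-ps1, chr6:38376843-38376902: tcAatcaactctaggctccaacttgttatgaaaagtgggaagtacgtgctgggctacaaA
Rpl30-ps10, chrX:71803724-71803783: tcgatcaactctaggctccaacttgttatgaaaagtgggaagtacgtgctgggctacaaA
Over the 345 coding bases, Rpl30-ps8, Rpl30-ps1 and Rpl30-ps10 each matched at 342 bases (99.1%) and Rpl30-ps9 at 340 (98.6%), with exact runs of up to 249 bases. With genes and copies this alike, the split of reads between them is uncertain.

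Values of the copies pointed the other way. Rpl30-ps10 was at 23.1, 9.43 and 30.9 FPKM in KO, against 51.8, 77.7 and 54.8 FPKM in WT (log2 fold change -1.62, limma adjusted p = 0.552). Log2 fold changes of Rpl30-ps8, Rpl30-ps9 and Rpl30-ps1 were -1.71, -1.21 and -1.38, with limma adjusted p values of 0.225, 0.0591 and 0.806. None was called. On the FPM scale Rpl30 itself held 486, 481 and 324 in KO, against 308, 286 and 250 in WT. Gene and copies summed gave a log2 difference of 0.46 (exact two-sided permutation p = 0.1, the smallest possible), so on this scale the sum had the sign of the gene. When gene FPKM were summed instead, which divides each copy by its own short length, the difference was -0.15 (exact two-sided permutation p = 0.4). This sum of gene and copies was added after the data were seen.

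Rpl7a also shares reads with copies, which held 31.3% of the fragments of the family. Rpl7a-ps11 on the X chromosome matched 796 of the 798 coding bases of Rpl7a. It was at 365, 380 and 349 FPKM in KO, against 436, 398 and 493 FPKM in WT (log2 fold change -0.27, limma adjusted p = 0.843). All KO libraries were below all WT libraries. Summed as FPM, Rpl7a and its copies gave 1202, 1338 and 1118 in KO, against 965, 1100 and 1093 in WT. The groups still did not overlap, and the log2 difference of the family was 0.21 against 0.44 for the gene alone (exact two-sided permutation p = 0.1).

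**Figure D4:**
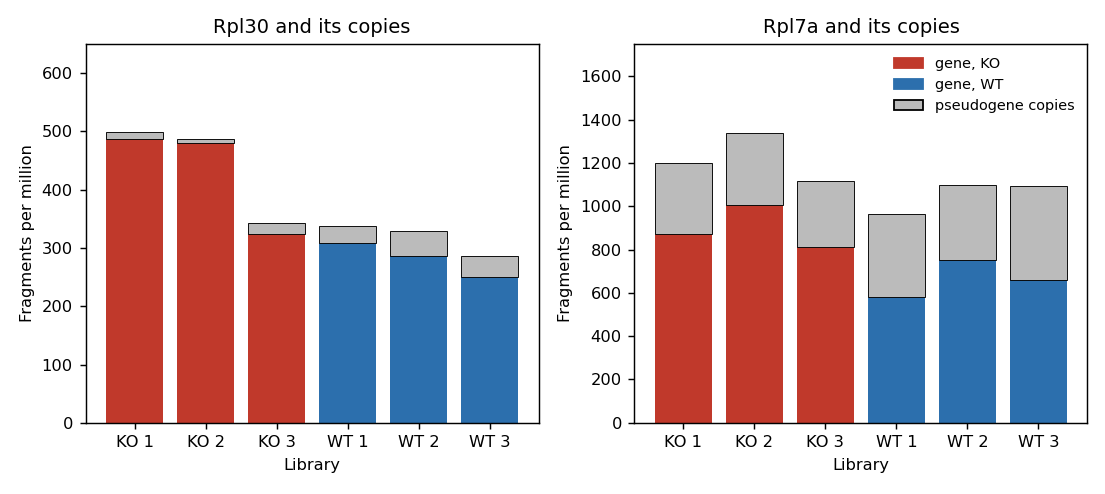
Bars give FPM in each library for Rpl30 (left) and Rpl7a (right), with the KO gene in red, the WT gene in blue and all pseudogene copies stacked in grey. The copies are a thin layer over Rpl30 and a thick one over Rpl7a, thinner in KO than in WT in both.

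Altogether 54 members have 206 named copies in the table, and in 12 members the copies held at least 10% of the family's fragments. The share was highest for Rpl21 (69.3%) and Rpl17 (65.1%). Rpl17 swung within genotypes, at 158, 250 and 211 FPKM in KO and 247, 265 and 118 FPKM in WT, while its family total was 768, 801 and 802 FPM in KO and 757, 788 and 823 in WT. The family total was thus far steadier than the gene. With copies added to their parents across all genes, an alternative added after the data were seen, limma still called 0 members and their median log2 fold change was 0.11.

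Of 9 paralog pairs, 6 gave a ratio. The log2 ratio of Rpl22l1 over Rpl22 was -0.76, -0.82 and -0.82 in KO, against -1.06, -1.04 and -0.88 in WT. Every KO ratio was higher, by 0.19 on average (exact two-sided permutation p = 0.1, the smallest possible, and 0.6 after Benjamini-Hochberg adjustment over the 6 pairs). The coding sequences of these paralogs matched at 70.1% of aligned positions with no exact run over 26 bases. For Rps27l over Rps27 the mean log2 ratio was -1.01 ± 0.118 in KO and -1.16 ± 0.0972 in WT (SD, n = 3 each, exact permutation p = 0.2). Rpl36al over Rpl36a was -0.29 in KO and -0.30 in WT, and Rpl7l1 over Rpl7 was -3.21 in KO and -3.20 in WT. Rps4l over Rps4x was -8.97 in KO and -8.92 in WT.

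Rps27rt, a copy of Rps27 on chromosome 9, was the most variable of the tested members. It was at 115, 39.8 and 220 FPKM in KO, against 100, 164 and 24.9 FPKM in WT. Its values ran over a wide range in both genotypes, with no order between them. All 252 coding bases of Rps27 are also in Rps27rt, so the files cannot say which gene a read within them came from. Rps27, a zinc-binding small subunit protein, was at 260, 272 and 161 FPKM in KO, against 203, 201 and 221 FPKM in WT. The pair held 314, 299 and 250 FPM in KO, against 250, 271 and 240 in WT, and these groups overlapped.

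Levels between genes are compared here as the sum of transcript FPKM, since the gene FPKM is divided by the length of all annotated exons, retained introns included. On that scale Rplp0, the P-stalk protein that anchors the acidic proteins, stood highest at 2820 in KO and 2745 in WT. Rps2, at the entry of the messenger RNA channel, was at 2670 in KO and 2445 in WT, and Rpsa, also known as a laminin receptor, at 2409 in KO and 2366 in WT. By gene FPKM the 5 highest were Rplp0, Rplp1, Rpl4, Rps2 and Rpl19. Rplp0 was at 2260, 2447 and 2119 FPKM in KO, against 2104, 2190 and 2320 FPKM in WT (log2 fold change 0.04, limma adjusted p = 0.920). Rpl4 was at 1568, 1673 and 1655 FPKM in KO, against 1592, 1599 and 1626 FPKM in WT (log2 fold change 0.02). For both genes the groups overlapped, and Rpl4 was nearly level across libraries.

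Rplp1, one of the acidic P-stalk proteins that recruit elongation factors, was at 2387, 2488 and 1893 FPKM in KO, against 1912, 2063 and 1974 FPKM in WT. KO replicate 3 was below all WT libraries, and without it Rplp1 rose (log2 fold change 0.30, limma adjusted p = 0.0309). At the other end, Rps4l passed the filter at 2.27, 2.11 and 2.44 FPKM in KO, against 1.87, 2.59 and 2.30 FPKM in WT. Rpl39l, a paralog known from the testis, was just outside it at 0.514, 0.941 and 0.797 FPKM in KO, against 0.201, 0.545 and 1.26 FPKM in WT. Rpl3l, a paralog known from striated muscle, was listed at 0 in 5 libraries.

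Rpl5 and Rpl11, which hold 5S rRNA and can bind Mdm2, had log2 fold changes of 0.06 and 0.08. Rps6, the substrate of S6 kinases, was at 1011, 1070 and 1054 FPKM in KO, against 974, 1007 and 1025 FPKM in WT (log2 fold change 0.06, limma adjusted p = 0.878). Rpl10, needed for subunit joining, had 0.10 and Rpl3 0.04. All KO values of Rps4x, the X-linked form of Rps4, lay between 1127 and 1148 FPKM, against 1062 to 1112 FPKM in WT (log2 fold change 0.07, limma adjusted p = 0.871). That gene did not overlap between groups although its shift was small.

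Short messages differed more than long ones in KO replicates 1 and 2. In the 28 tested members with the shortest main transcripts (294 to 597 bases), the median difference from WT was 0.28 in KO replicate 1, 0.32 in KO replicate 2 and -0.04 in KO replicate 3, on the log2 scale. Among the 28 longest (1009 to 5179 bases) it was 0.09, 0.18 and -0.001. Spearman's rho between length and this difference over the 84 members was -0.54, -0.41 and 0.25 in KO replicates 1, 2 and 3. Over all 10827 genes with a length it was -0.33, -0.46 and 0.23, of the same sign in each KO library. For WT replicates 1, 2 and 3, each set against the other WT libraries, rho over the members was -0.10, -0.41 and 0.35, and over all genes 0.25, 0.01 and -0.24. The slant over members in WT replicate 2 was as steep as that in KO replicate 2, and in no WT library did it match the slant over all genes. These correlations are across genes, which share each library, and carry no p. Main transcripts of members had a median of 834 bases, against 2594 for all tested genes. With the length trend removed from each of the 6 libraries the median log2 fold change of members was 0.07. Limma called 0 members, as it did before the removal, so that count does not bear on length. The removal was not repeated without KO replicate 3. Of the 29 members called without KO replicate 3, 14 were among the 28 shortest, 12 among the 28 of middle length and 3 among the 28 longest. The part of length in these differences was not tested beyond this.

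**Figure D5:**
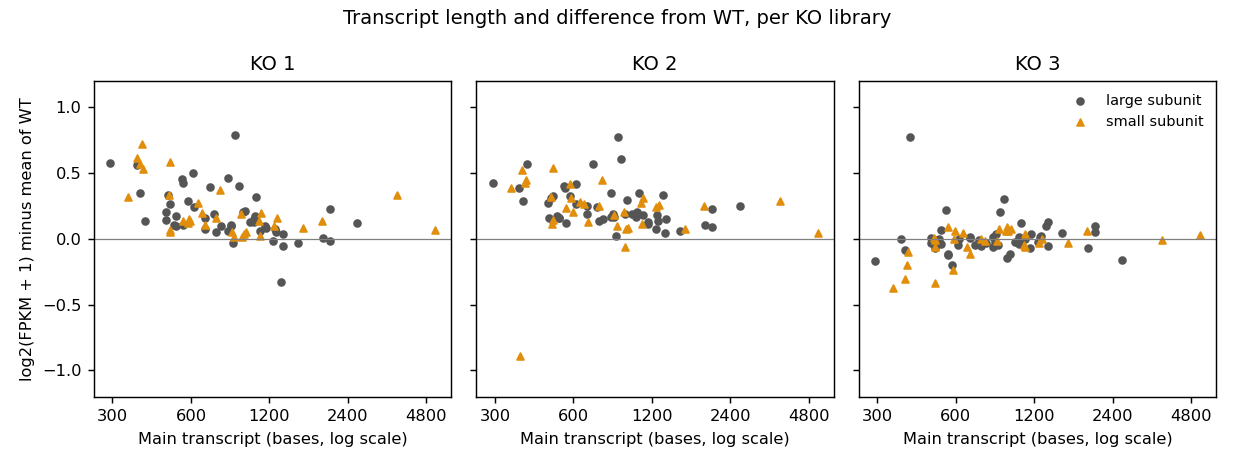
Each point is 1 tested member, with the length of its main transcript on a log axis and its log2(FPKM + 1) minus the WT mean in KO replicates 1, 2 and 3. Short members stand highest in KO replicates 1 and 2 and lowest in KO replicate 3. Rps27rt lies beyond the axis in KO replicate 3.

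Members are represented by 459 transcripts, of which 362 were tested. Limma called 0 of them (0.0417% of 19184 transcripts were called), and 17 had an unadjusted p under 0.05 (5.57% of all). In 28 transcripts every KO library was above every WT library (4.71% of all), and in 8 below (6.36%). The main coding transcript of Rpl29, a large subunit protein, had the smallest p, at 470, 518 and 380 FPKM in KO against 291, 325 and 295 FPKM in WT (log2 fold change 0.58, limma adjusted p = 0.519). Its second transcript was at 159, 192 and 88.5 FPKM in KO, against 185, 161 and 163 FPKM in WT. Only the first separated the groups. A transcript of Rpl13a annotated for nonsense-mediated decay was at 425, 401 and 309 FPKM in KO, against 283, 254 and 266 FPKM in WT (log2 fold change 0.48, limma adjusted p = 0.719). The lowest KO library was above the highest WT library. A retained-intron transcript of Rpl12 was at 4.44, 6.11 and 5.09 FPKM in KO, against 3.28, 3.25 and 2.31 FPKM in WT. Rpl12 as a whole gene had a log2 fold change of 0.01. In the other direction, a retained-intron transcript of Rps18 was at 1.29, 1.36 and 1.495 FPKM in KO, against 2.38, 3.28 and 3.10 FPKM in WT (log2 fold change -0.71, limma adjusted p = 0.567).

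Splits between transcripts of a gene were unstable. In 9 members 10 transcripts were at 10 FPKM or more in a library and at 0 in another. For Rpl22l1, transcript ENSMUST00000194649 was at 136, 123 and 0 FPKM in KO, against 87.8, 1.02 and 107 FPKM in WT. Summed with the other main transcript, the gene had 226, 218 and 185 FPKM in KO, against 156, 144 and 175 FPKM in WT. The sum kept the groups apart where the single transcript did not. The authors' deposited table of transcripts gives 11 member transcripts a q under 0.05 (1.82% of all transcripts have one), and 4 of these are listed at 0 in 5 of the 6 libraries. Retained-intron transcripts held 4.98 ± 0.349% of member fragments in KO and 5.13 ± 0.529% in WT (SD, n = 3 each, exact permutation p = 0.7). Over all transcripts, every KO library lay below every WT library in the share held by retained-intron transcripts, 2.65 ± 0.163% in KO and 2.94 ± 0.0809% in WT. The same was so for transcripts annotated for nonsense-mediated decay, 1.55 ± 0.0568% in KO and 1.76 ± 0.0346% in WT (exact two-sided permutation p = 0.1 for both shares, the smallest possible). Their part in the values of members was not tested.

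Other genes of ribosome production and use showed no called change with 6 libraries. Lists of 37 ribosome biogenesis factors, 10 chaperones and importers of ribosomal proteins, 24 initiation factors, 16 elongation factors and other 5′ TOP messages, 13 regulators of ribosomal protein messages and 10 noncoding hosts of snoRNAs had 0 called genes in limma. At an unadjusted p under 0.05 they had, in that order, 2, 0, 0, 1, 0 and 2, where 5.61% of all tested genes passed in either direction. The 2 biogenesis factors, Taf1d and Nvl, were lower in KO (log2 fold changes -0.29 and -0.18). In these 2 of 37 every KO library was below every WT library, as in 6.88% of all tested genes. Of all 37 biogenesis factors, 22 had a log2 fold change above 0. The elongation list's gene, Eif4a2, was also lower (-0.20), and of the snoRNA hosts Snhg5 was lower (-0.28) and Snhg3 higher (0.36). In the same order, the lists had median log2 fold changes of 0.03, 0.02, 0.01, 0.03, -0.06 and 0.05, against 0.11 for members. Without KO replicate 3, 8 of the 37 biogenesis factors rose and 0 fell, where 4% of tested genes were called higher and 6.14% lower, among them Gar1 and Nop10 of the pseudouridylation complex at 0.41 and 0.46 and Polr1d of RNA polymerases I and III at 0.42. In the same fit 2 chaperones (Tsr2 and Grwd1), 1 initiation factor (Eif1) and 1 elongation factor (Eef1d) rose and none of these lists had a gene that fell. Of the 13 regulators 1 fell in this fit, where 6.14% of tested genes were called lower. This was Myc, a transcription factor that drives ribosome production (log2 fold change -0.28, limma adjusted p = 0.0247). Myc was at 80.3, 87.0 and 111 FPKM in KO, against 102, 101 and 102 FPKM in WT. The omitted KO replicate 3 thus lay above all WT libraries, and with 6 libraries Myc had -0.15 (limma adjusted p = 0.870). Without KO replicate 3, 1 of the 10 snoRNA hosts, Snhg5, also fell (-0.34), and neither list had a gene that rose. Rack1 and Fau, ribosome components with other names, had log2 fold changes of 0.05 and 0.15 with 6 libraries. Fau was at 464, 487 and 430 FPKM in KO, against 408, 423 and 411 FPKM in WT, so its groups did not overlap. Eef1a1, the elongation factor that brings aminoacyl-tRNA to the ribosome and itself a 5′ TOP message, was at 4524, 4754 and 6091 FPKM in KO, against 5224, 5367 and 5729 FPKM in WT. Its KO replicates 1 and 2 lay below all WT libraries, the opposite side from most members.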

How the data were processed

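The authors deposited a gene table and a transcript table with FPKM per library, per the file headers. Both also hold a fold (a ratio of KO over WT), its log2, a p-value and a q-value as the authors deposited them. The deposited transcript table has other numbers too, such as transcript length and exon count. Per the submitters' processing notes the tools were StringTie, HISAT2, edgeR, DESeq2, FastQC and cutadapt, with no versions, and the sources used here do not say which of them made which column. The notes name mm9, but 73240 of 73430 transcripts found in GENCODE vM21 have its GRCm38 positions, so GRCm38 is used. Among genes at 1 FPKM or more, at least 98.8% had a gene FPKM within 1% of the sum of transcript FPKM times length over the length of all exons, and the FPM values were taken from that product. Only 19.0 to 21.1% of low values were whole multiples of a common step within 0.02 steps, so reads were not recovered and no count test was run.

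Genes and transcripts at 1 FPKM or more in at least 3 libraries were tested with R 4.3.3 and limma 3.58.1 after the transform log2(FPKM + 1) (mean trend, Benjamini-Hochberg adjustment over all features tested, called at adjusted p under 0.05). The fit was also run on simulated data with independent noise for each gene. Those data held no shift shared by the genes of a library, so they do not show how the fit handles 1. The log2(FPKM + 1) scale understates changes of low genes. Same-numbered KO and WT libraries deviated with correlations of 0.007, -0.017 and -0.076, so the numbers were not used as pairs. Members and lists were chosen with earlier results of these data known. Named genes are Sirt2, the members and transcripts of smallest p, the 5 highest and lowest, both genes of each paralog pair, those nearest the filter, and up to 3 per list. Others named, such as Rps27l, Rpl5, Rps6 and the list genes called without KO replicate 3, were chosen after their values were seen. Sequence identity was computed with edlib 1.3.9.post1, and figures were drawn with matplotlib 3.10.9.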

Additional observations from a re-analysis of the deposited data

How the results depend on the processing

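Of the settings tried, leaving out 1 library decided the count of members called higher, which ranged from 0 to 29 over the 6 omissions, with 29 only without KO replicate 3. It was 0 under every other setting, and 0 members were called lower under any. The median log2 fold change of members stayed above 0, from 0.07 without KO replicate 2 to 0.18 without KO replicate 3. It was 0.15 with median scaling and 0.09 with scaling to genes that are not members. Over all genes limma called 12, and 0 to 1088 when 1 library was left out, 5 with a filter at 5 FPKM and 19 with transcript sums as gene levels, the last added after the data were seen. With the replicate number as a block, although the numbers do not pair the libraries, 0 members and 13 genes were called. The Rpl22l1 over Rpl22 difference then kept its value of 0.19, with p = 0.25 by exact sign-flip permutation, the smallest two-sided p that test allows here. Omissions moved that difference between 0.16 and 0.25. Adjusted p for Rpl30 ranged from 0.00825 to 1.00 over its alternatives. Rpl30 with its copies reversed to -0.15 when gene FPKM were summed in place of fragments, since that sum divides the short copies by their own length. The unknown depth and the sharing of reads with pseudogene copies limit what can be said of single genes.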
